A study of Mus musculus with 22 samples.

Results

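The innate pattern receptor and inflammasome set consisted of 32 genes, found by their symbols among the 46078 genes counted in distal colon of mice. It held 12 Toll-like receptors (Tlr1 to Tlr9 and Tlr11 to Tlr13), the co-receptors Cd14 and Ly96, the adaptors Myd88, Ticam1, Ticam2 and Tirap, the kinases Irak1 to Irak4, the receptors Nod1 and Nod2 with the kinase Ripk2, the sensors Nlrp3, Nlrp6, Nlrc4 and Aim2, the adaptor Pycard, and the caspases Casp1 and Casp4. Poly(A) RNA was sequenced from 22 mice. The 8 C57BL/6 mice were wild-type controls of 14 weeks (4 males and 4 females). The 7 Winnie mice, also of 14 weeks (3 males and 4 females), carry a missense change in Muc2, the main secreted mucin of goblet cells, and develop colitis without any chemical agent. The 7 Winnie-Prolapse mice were severely inflamed Winnie mice with prolapse, sampled at 18 weeks (4 males and 3 females). Age therefore goes with the Winnie-Prolapse group, and the effects of age and of prolapse cannot be told apart. The Muc2 change is carried in every cell, and each library is a whole piece of colon wall with epithelium, muscle and leukocytes together.

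Toll-like receptors (TLRs) sit at the cell surface, where they bind microbial lipids, lipoproteins and flagellin, or in endosomes, where they bind nucleic acids or, for TLR11 and TLR12, profilin of protozoa. They signal through MyD88 or TRIF (the product of Ticam1) and the IRAK kinases to NF-κB and interferon regulatory factors. NOD1 and NOD2 sense fragments of bacterial cell wall in the cytosol and signal through RIPK2, and inflammasome sensors such as NLRP3, NLRC4 and AIM2 bring together PYCARD and caspase-1, which matures IL-1β and IL-18. In the gut these receptors are carried both by epithelial cells and by leukocytes of the lamina propria.

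Promoter windows of 300 bases (250 before the transcription start and 50 after) were given by RefSeq on GRCm38.p6 for 26 of the 32 genes, with 34 windows in all. Both strands were searched for the letters GAAANNGAAA (an interferon-stimulated response element) and TTCNNNGAA (a gamma-activated sequence) and for the kappa B site by its usual consensus. The interferon element was found in 3 of 34 windows (8.82%), against 3.44% of all 32851 windows. The gamma-activated sequence was in 5 of 34 (14.7%), against 8.3% of all windows, and the kappa B letters were in 5 of 34 (14.7%, in 4 genes: Tlr2, Tlr3, Casp4 and Nlrp3), against 4.51%. A match is a run of letters, not a bound site, and overlapping matches were counted within 1 window. The windows shown belong to Tlr2, Tlr6 and Myd88, because these genes passed the strict rule in Winnie-Prolapse and each window holds more than 1 match. All 3 lie on the minus strand and are written 5′ to 3′ with the matched letters in capitals. Tlr6 has a second window, not shown, that also holds more than 1 match (2 gamma-activated sequences). The window of Tlr2 is chr3:83841559-83841858, with 2 overlapping kappa B matches (GGGGAATTCC and GGGAATTCCC) and a single match near the start. That of Tlr6, the first of its 2 windows, is chr5:64959117-64959416, with 2 overlapping interferon elements read on the opposite strand. That of Myd88 is chr9:119339969-119340268, where a gamma-activated sequence (TTCTCGGAA) overlaps an interferon element (GAAAGCGAAA).
Tlr2: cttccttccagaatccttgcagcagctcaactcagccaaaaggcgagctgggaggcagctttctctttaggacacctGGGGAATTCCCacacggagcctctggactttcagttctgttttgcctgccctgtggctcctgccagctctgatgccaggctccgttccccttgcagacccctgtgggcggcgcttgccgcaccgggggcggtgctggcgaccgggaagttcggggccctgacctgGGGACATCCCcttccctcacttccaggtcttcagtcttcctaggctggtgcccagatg
Tlr6: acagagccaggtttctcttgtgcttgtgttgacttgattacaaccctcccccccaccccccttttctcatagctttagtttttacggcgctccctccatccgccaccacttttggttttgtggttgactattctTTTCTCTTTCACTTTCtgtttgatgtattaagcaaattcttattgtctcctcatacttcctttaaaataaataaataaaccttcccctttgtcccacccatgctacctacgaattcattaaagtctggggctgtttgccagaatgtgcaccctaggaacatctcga
Myd88: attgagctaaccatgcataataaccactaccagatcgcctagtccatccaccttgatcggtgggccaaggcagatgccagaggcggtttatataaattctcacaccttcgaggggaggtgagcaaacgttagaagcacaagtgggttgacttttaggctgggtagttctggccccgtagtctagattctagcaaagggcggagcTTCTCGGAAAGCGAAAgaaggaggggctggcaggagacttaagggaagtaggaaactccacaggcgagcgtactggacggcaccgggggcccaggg

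The libraries held 24817527 to 36344372 counts, so that 3 counts, taken here as the floor, came to 0.0825 to 0.121 CPM (the count scaled to the total of its library). All 32 genes passed the filter on low counts in each comparison. Some libraries stood apart. In C57BL/6 replicate 7, Ly6g was at 3.8 CPM, against a median of 286 in its group, and this library had the lowest summed macrophage, T cell and dendritic cell markers of its group. Winnie-Prolapse replicate 6 had 18.0% of its counts in milk protein genes, against at most 0.00542% in any other library. Whether strain or dissection differed for these libraries was not tested. Muscle markers fell with disease, from a median summed level of 8310 CPM in C57BL/6 to 3450 in Winnie and 2210 in Winnie-Prolapse. A gene was called by the strict rule of the study (adjusted p under 0.001 and at least 1.5-fold) or by a wider rule (adjusted p under 0.05 and at least 1.5-fold), both from the edgeR quasi-likelihood test with Benjamini-Hochberg adjustment. Both comparisons against C57BL/6 use the same 8 control mice.

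Part of the set was higher in Winnie and a larger part in Winnie-Prolapse. In Winnie against C57BL/6, 9 of the 32 genes were higher by the wider rule (28.1%) and none was lower. Over all 17289 genes tested, 15.9% were called by that rule and 7.42% were called higher. The 9 were Cd14, Tlr3, Tlr8, Tlr11, Tlr12, Tlr13, Nod2, Nlrp3 and Casp4. The strict rule called 0 of 32, against 0.0925% of all genes, while 19 of the 32 were higher (20.5% of all genes) and 0 lower at an unadjusted p under 0.05 in edgeR. DESeq2 called 5 by the strict rule (Cd14, Tlr3, Tlr12, Tlr13 and Nod2). It called 4.19% of all genes, but over 29288 genes, as no filter on low counts was used there. The median log2 fold change was 0.39 over the set and -0.01 over all genes.

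In Winnie-Prolapse against C57BL/6, 13 of 32 genes (40.6%) were higher by the strict rule and none lower, where 18.3% of 17397 genes were called and 9.84% called higher. These were Tlr2, Tlr3, Tlr4, Tlr6, Tlr8, Tlr12, Tlr13, Cd14, Myd88, Tirap, Irak3, Nod2 and Nlrp3. The wider rule added Tlr11, Nod1 and Casp4, giving 16 of 32, against 34.4% of all genes called and 16.7% called higher. The median log2 fold change was 0.73 over the set and -0.01 over all genes. By the plain range of CPM, 8 genes were higher in every Winnie-Prolapse library than in every C57BL/6 library (Cd14, Tlr8, Tlr12, Tlr13, Tirap, Nod2, Nlrp3 and Nlrc4) and Irak2 was lower in every one. Such separation was seen in 16.0% of all genes, with 6.5% of all genes higher and 9.45% lower. In Winnie only Cd14 was separated in this way from C57BL/6, where 1.64% of all genes were (0.463% higher).

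In Winnie-Prolapse against Winnie, 5 of 32 genes (15.6%) were higher by the wider rule, Tlr6, Tlr8, Cd14, Nod2 and Nlrp3, against 6.99% of 17041 genes called and 4.27% called higher. The strict rule called 0 of 32 and 0.0% of all genes in edgeR. At an unadjusted p under 0.05, 14 of the 32 were higher and 3 lower (Tlr1, Irak2 and Nlrp6), where 27.8% of all genes passed that limit. DESeq2 called 1 (Nlrp3) by the strict rule, where it called 2.22% of 29471 genes, taken without a filter on low counts. No gene of the set was separated in range between these groups, where 0.962% of all genes were. The median log2 fold change was 0.21 over the set and 0.01 over all genes.

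**Figure D1:**
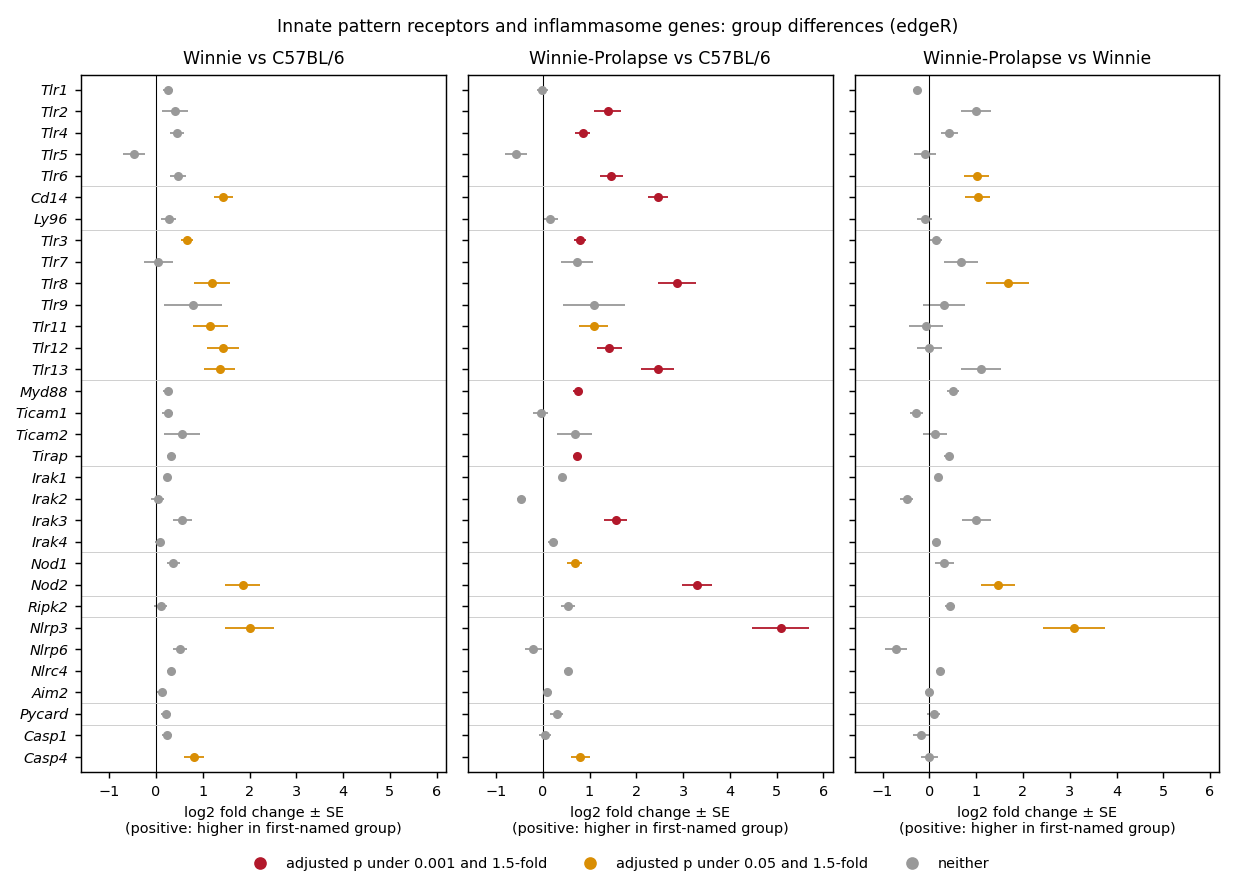
log2 fold change (x axis, ± SE from the edgeR fit) of the 32 genes (y axis, by role, separated by grey lines) in 3 comparisons; red marks the strict rule, orange the wider rule and grey neither. Nlrp3, Nod2, Tlr8, Cd14 and Tlr13 lie farthest to the right in Winnie-Prolapse against C57BL/6, while Tlr1, Ticam1, Aim2 and Casp1 lie within 0.1 of 0 there.

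Among the surface receptors Tlr2, Tlr4 and Tlr6 passed the strict rule in Winnie-Prolapse and Tlr1 and Tlr5 did not. Tlr2 (ENSMUSG00000027995, GRCm38 chr3:83836272-83841767, minus strand), whose product senses bacterial lipoproteins, was at 8.17 to 25.1 CPM in C57BL/6 (median 11.2), 7.28 to 25.4 in Winnie (median 15.8) and 15.4 to 47.3 in Winnie-Prolapse (median 35.6). The groups overlap, and the highest C57BL/6 value belongs to replicate 7. The other 7 controls were at or under 12.1 CPM. In Winnie-Prolapse Tlr2 rose by 1.39 ± 0.29 on the log2 scale (± SE, adjusted p = 0.000914), and in Winnie it stood at 0.41 ± 0.28 (adjusted p = 0.288). The strict call of Tlr2 rests on particular libraries: without any 1 of C57BL/6 replicates 1 to 6 and 8 or Winnie-Prolapse replicates 4 to 7 the adjusted p rose above 0.001, to at most 0.00226, with a log2 fold change of 1.28 to 1.64 over all 15 fits that leave out 1 library. The call was also lost with limma-voom and when libraries were scaled by size without TMM.

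Tlr6 and Tlr1 encode the partners with which TLR2 forms dimers. Tlr6 was a low gene, at 0.786 to 1.36 CPM in C57BL/6 (median 1.11), 1.06 to 2.21 in Winnie (median 1.21) and 1.24 to 6.05 in Winnie-Prolapse (median 2.46). It rose in Winnie-Prolapse against C57BL/6 (log2 fold change 1.47 ± 0.25, adjusted p = 0.000202), and 6 of 7 Winnie-Prolapse libraries exceeded every control. Tlr1 was far more abundant and flat, at 67.8 to 132 CPM in C57BL/6 (median 118), 111 to 151 in Winnie (median 123) and 76.2 to 129 in Winnie-Prolapse (median 106). Its difference was 0.25 ± 0.11 in Winnie (adjusted p = 0.0898) and -0.01 ± 0.12 in Winnie-Prolapse (adjusted p = 0.95). Tlr1 and Tlr6 are neighbouring paralogs on chromosome 5, and the handling of reads shared between them is not given in the sources used here.

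Tlr4, the lipopolysaccharide receptor, was at 16.6 to 29.3 CPM in C57BL/6 (median 21.1), 19 to 39.6 in Winnie (median 26.2) and 25.1 to 44.0 in Winnie-Prolapse (median 41.2). In Winnie-Prolapse it rose by 0.86 ± 0.16 on the log2 scale (adjusted p = 0.000408). The strict call was lost without C57BL/6 replicates 1, 2 or 6 or Winnie-Prolapse replicates 1, 5 or 7 (adjusted p at most 0.00143, log2 fold change 0.77 to 0.95 over the 15 fits). In Winnie the difference, 0.45 ± 0.15 (adjusted p = 0.0414), was below 1.5-fold.

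The co-receptors of TLR4 parted. Cd14, which hands lipopolysaccharide to the receptor, was at 17.8 to 29.4 CPM in C57BL/6 (median 21.6), 32.2 to 90.9 in Winnie (median 52.4) and 63.4 to 172 in Winnie-Prolapse (median 120). Every Winnie and every Winnie-Prolapse library lay above every control. The log2 fold change against C57BL/6 was 1.44 ± 0.21 in Winnie (adjusted p = 0.00128) and 2.46 ± 0.21 in Winnie-Prolapse (adjusted p = 4.1e-07), and Winnie-Prolapse exceeded Winnie by 1.03 ± 0.27 (adjusted p = 0.0333). Ly96, which encodes MD-2, the lipid-binding partner of TLR4, did not pass any test: it was at 4.47 to 8.72 CPM in C57BL/6 (median 6.16), 5.75 to 9.11 in Winnie (median 6.7) and 5.33 to 8.82 in Winnie-Prolapse (median 6.17). Its log2 difference was 0.27 ± 0.16 in Winnie (adjusted p = 0.227) and 0.16 ± 0.16 in Winnie-Prolapse (adjusted p = 0.414).

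Tlr5, the flagellin receptor, was the surface receptor with lower values in disease. It was at 2.72 to 6.7 CPM in C57BL/6 (median 3.45), 1.62 to 4.5 in Winnie (median 2.62) and 1.45 to 3.17 in Winnie-Prolapse (median 2.65). The log2 difference was -0.47 ± 0.24 in Winnie (adjusted p = 0.16) and -0.57 ± 0.24 in Winnie-Prolapse (adjusted p = 0.0528), so that neither passed. It was called lower by the wider rule in Winnie-Prolapse when C57BL/6 replicate 2, 4, 5 or 8 or Winnie-Prolapse replicate 6 was left out, with a log2 fold change of -0.62 to -0.67 and an adjusted p of 0.0276 to 0.0409.

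Of the 7 endosomal receptors, 5 were higher by the wider rule in Winnie (Tlr3, Tlr8, Tlr11, Tlr12 and Tlr13), where 7.42% of all genes were, and the same 5 in Winnie-Prolapse, where 16.7% were. The controls are shared, so the second count is not separate from the first.

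Tlr3, the receptor for double-stranded RNA, was the most abundant of them, at 24.6 to 39.7 CPM in C57BL/6 (median 27.3), 31.3 to 55.4 in Winnie (median 47.7) and 39.7 to 61.0 in Winnie-Prolapse (median 48.1). It rose by nearly the same amount in both groups, 0.67 ± 0.13 (adjusted p = 0.00428) and 0.79 ± 0.13 (adjusted p = 0.000123). Winnie-Prolapse and Winnie differed by 0.13 ± 0.14 (adjusted p = 0.577). An antisense transcript, Gm45542, shares exon sequence with Tlr3, and the strand setting of the counting is not given in the sources used here.

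Tlr8 (ENSMUSG00000040522, chrX:167242696-167264329, minus strand), a receptor for single-stranded RNA, was near the detection limit in controls, at 0.166 to 0.656 CPM (5 to 17 counts, median 0.362 CPM). It was at 0.23 to 1.73 CPM in Winnie (median 0.805) and 0.877 to 5.52 in Winnie-Prolapse (median 2.68), where every library exceeded every control. The log2 fold change was 2.87 ± 0.41 in Winnie-Prolapse (adjusted p = 4.62e-05) and 1.2 ± 0.38 in Winnie (adjusted p = 0.0309). The call in Winnie was lost without any 1 of C57BL/6 replicates 2, 4, 6 and 8 or Winnie replicates 1, 2, 4 and 6 (adjusted p at most 0.0836, log2 fold change 0.94 to 1.37 over the 15 fits).

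Tlr13 (ENSMUSG00000033777, chrX:106143204-106160493, plus strand), a receptor for bacterial ribosomal RNA in mice, was at 0.652 to 2.16 CPM in C57BL/6 (median 1.41), 1.12 to 7.4 in Winnie (median 3.22) and 3.1 to 19.4 in Winnie-Prolapse (median 6.33). The ranges of C57BL/6 and Winnie-Prolapse do not overlap. Its log2 fold change was 1.36 ± 0.33 in Winnie (adjusted p = 0.00983) and 2.46 ± 0.35 in Winnie-Prolapse (adjusted p = 4.58e-05).

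Tlr12 and Tlr11 recognise profilin in mice, and both were as high in Winnie as in Winnie-Prolapse. Tlr12 was at 0.667 to 2.78 CPM in C57BL/6 (median 1.11), 1.51 to 5.89 in Winnie (median 3.37) and 2.88 to 4.5 in Winnie-Prolapse (median 3.18). It rose by 1.43 ± 0.34 in Winnie (adjusted p = 0.00984) and 1.42 ± 0.27 in Winnie-Prolapse (adjusted p = 0.000485). The strict call was lost without C57BL/6 replicate 1, 2 or 8 or Winnie-Prolapse replicate 1, 4, 6 or 7 (adjusted p at most 0.00161, log2 fold change 1.32 to 1.66 over the 15 fits). Between Winnie-Prolapse and Winnie, Tlr12 differed by 0.00 ± 0.27 (adjusted p = 0.998).

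Tlr11 was the lower of the pair, at 0.127 to 0.54 CPM in C57BL/6 (4 to 16 counts, median 0.356 CPM), 0.295 to 1.57 in Winnie (median 0.547) and 0.322 to 1.12 in Winnie-Prolapse (median 0.679). Its log2 fold change was 1.16 ± 0.37 in Winnie (adjusted p = 0.0331) and 1.09 ± 0.31 in Winnie-Prolapse (adjusted p = 0.00757). In Winnie the call was lost without C57BL/6 replicate 2, 3, 4 or 6 or Winnie replicate 1 or 2 (adjusted p at most 0.0874, log2 fold change 0.92 to 1.31 over the 15 fits).

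The remaining endosomal receptors, Tlr7 and Tlr9, did not pass. Tlr7, a receptor for single-stranded RNA and the neighbour of Tlr8 on chromosome X, was at 0.652 to 2.93 CPM in C57BL/6 (median 1.53), 0.952 to 2.34 in Winnie (median 1.38) and 0.873 to 5.09 in Winnie-Prolapse (median 2.69). Its log2 difference was 0.05 ± 0.31 in Winnie (adjusted p = 0.911) and 0.73 ± 0.35 in Winnie-Prolapse (adjusted p = 0.091). Without C57BL/6 replicate 5 or Winnie-Prolapse replicate 2 the latter was called by the wider rule (0.91, adjusted p = 0.0449, and 0.9, adjusted p = 0.0264).

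Tlr9, which recognises unmethylated CpG DNA, turned on a single control library. C57BL/6 replicate 5 was at 6.79 CPM, the highest of all 22 libraries, while the other controls were at 0.109 to 2.01 CPM. Winnie libraries were at 1.28 to 5.67 CPM (median 2.24) and Winnie-Prolapse libraries at 0.545 to 6.74 (median 3.14). With every library the log2 difference was 0.78 ± 0.62 in Winnie (adjusted p = 0.36) and 1.09 ± 0.66 in Winnie-Prolapse (adjusted p = 0.173). Without C57BL/6 replicate 5 both passed the wider rule, at 1.63 (adjusted p = 0.0284) and 1.95 (adjusted p = 0.00917). That library also had the highest summed T cell (17.7 CPM) and dendritic cell (30.8 CPM) markers of the controls.

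**Figure D2:**
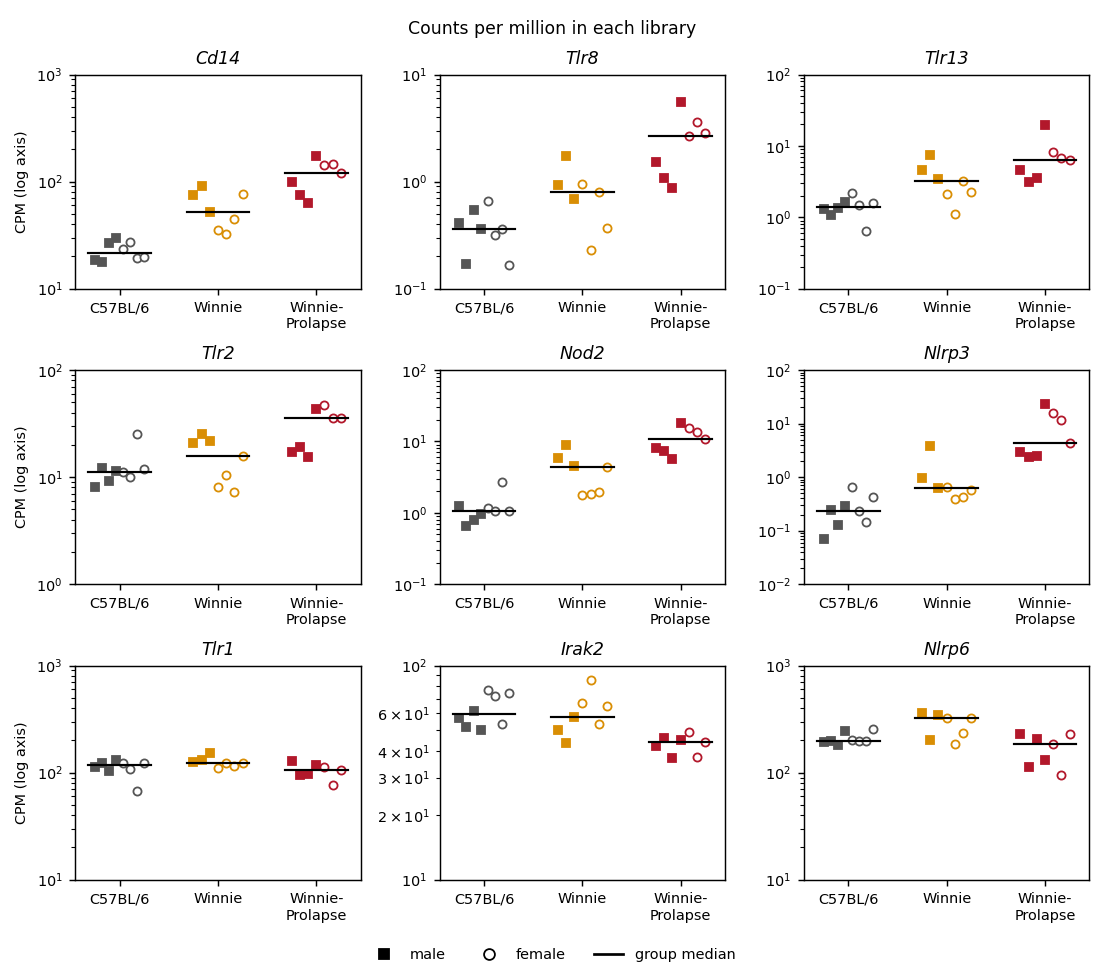
CPM (y axis, log scale) of 9 genes in each library (points; squares male, open circles female) by group, with the group median as a line. Cd14, Tlr8, Tlr13, Nod2 and Nlrp3 of all 7 Winnie-Prolapse libraries lie above the controls, the Tlr2 and Nod2 outlier of C57BL/6 is replicate 7, and Irak2 of Winnie-Prolapse lies below the controls.

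Of the adaptors, Myd88 and Tirap passed the strict rule in Winnie-Prolapse and Ticam1 and Ticam2 did not pass. Myd88, the shared adaptor of most TLRs, was at 26.0 to 34.5 CPM in C57BL/6 (median 30.0), 24.9 to 41.2 in Winnie (median 33.5) and 33.6 to 67.6 in Winnie-Prolapse (median 42.8). It rose in Winnie-Prolapse by 0.75 ± 0.10 (adjusted p = 2.64e-05). Tirap, which bridges TLR2 and TLR4 to MyD88, was at 25.5 to 36.8 CPM in C57BL/6 (median 32.5), 30.8 to 48.6 in Winnie (median 35.6) and 42.0 to 63.8 in Winnie-Prolapse (median 47.9), above every control. It rose by 0.73 ± 0.09 in Winnie-Prolapse (adjusted p = 1.73e-05). Against Winnie, both differences in Winnie-Prolapse had adjusted p below 0.05 without reaching 1.5-fold: 0.5 ± 0.13 for Myd88 (adjusted p = 0.0292) and 0.41 ± 0.10 for Tirap (adjusted p = 0.0295).

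Ticam1, which encodes TRIF, was at 29.6 to 54.5 CPM in C57BL/6 (median 47.7), 47.4 to 58.9 in Winnie (median 50.3) and 28.3 to 51.3 in Winnie-Prolapse (median 45.5). Its difference in Winnie-Prolapse was -0.04 ± 0.16 (adjusted p = 0.849). Ticam2, the bridging adaptor between TLR4 and TRIF, was low, at 0.0362 to 1.11 CPM in C57BL/6 (1 to 35 counts, median 0.725 CPM), 0.473 to 1.47 in Winnie (median 0.787) and 0.605 to 1.47 in Winnie-Prolapse (median 0.977). The single count was in C57BL/6 replicate 7, below the floor. The difference in Winnie-Prolapse was 0.68 ± 0.37 (adjusted p = 0.129). Exons of Ticam2 overlap Tmed7 on the same strand, so reads there could belong to either gene. Myd88, Tirap, Irak2, Irak3, Irak4 and Pycard share exon sequence with a gene on the other strand.

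Among the IRAK kinases, the inhibitory member was the one called. Irak3, whose product (IRAK-M) restrains TLR signalling, was at 3.31 to 4.98 CPM in C57BL/6 (median 3.85), 3.28 to 10.9 in Winnie (median 4.49) and 4.96 to 25.8 in Winnie-Prolapse (median 8.5). In Winnie-Prolapse it rose by 1.56 ± 0.25 (adjusted p = 0.000106). In Winnie the difference of 0.56 ± 0.20 (adjusted p = 0.0471) was just under 1.5-fold, and it was called by the wider rule without C57BL/6 replicate 5 (0.61, adjusted p = 0.0443), Winnie replicate 5 (0.63, adjusted p = 0.0257) or Winnie replicate 7 (0.65, adjusted p = 0.0296).

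Irak2, a kinase that sustains the TLR response, was the gene whose Winnie-Prolapse values all lay below the controls. It was at 50.2 to 77.3 CPM in C57BL/6 (median 59.4), 43.7 to 85.2 in Winnie (median 57.6) and 37.0 to 49.0 in Winnie-Prolapse (median 44.1). The log2 difference of -0.46 ± 0.10 had an adjusted p of 0.00178 but was under 1.5-fold and was not called, and against Winnie it was -0.49 ± 0.13 (adjusted p = 0.0305).

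Irak1 and Irak4, the kinases next to MyD88, moved little. Irak1 was at 58.6 to 71.5 CPM in C57BL/6 (median 66.2), 64.8 to 88.1 in Winnie (median 70.0) and 69.5 to 97.3 in Winnie-Prolapse (median 87.2). Its difference was small and precise, 0.23 ± 0.06 in Winnie (adjusted p = 0.0129) and 0.42 ± 0.06 in Winnie-Prolapse (adjusted p = 5.57e-05), below 1.5-fold in both. Irak4 was at 34.2 to 55.4 CPM in C57BL/6 (median 36.9), 33.5 to 47.1 in Winnie (median 38.4) and 37.9 to 47.4 in Winnie-Prolapse (median 42.5). Its difference in Winnie-Prolapse was 0.22 ± 0.11 (adjusted p = 0.0976), and the highest Irak4 value of all belonged to C57BL/6 replicate 7.

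Nod2 (ENSMUSG00000055994, chr8:88647315-88688474, plus strand), the receptor for muramyl dipeptide, had the second largest rise of the set. It was at 0.65 to 2.68 CPM in C57BL/6 (median 1.06), 1.76 to 8.78 in Winnie (median 4.45) and 5.6 to 18.2 in Winnie-Prolapse (median 10.9). Winnie-Prolapse was above every control, and the overlap of Winnie with the controls was with C57BL/6 replicate 7 alone. The log2 fold change was 1.85 ± 0.37 in Winnie (adjusted p = 0.00474), 3.3 ± 0.32 in Winnie-Prolapse (9.86-fold, adjusted p = 1.63e-06) and 1.47 ± 0.37 between Winnie-Prolapse and Winnie (adjusted p = 0.0295).

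Nod1 and Ripk2 moved less than Nod2. Nod1, the receptor for diaminopimelic acid peptides, was at 12.8 to 17.3 CPM in C57BL/6 (median 14.2), 12.2 to 26.8 in Winnie (median 15.1) and 11.9 to 32.1 in Winnie-Prolapse (median 19.4). It was called by the wider rule in Winnie-Prolapse (0.68 ± 0.16, adjusted p = 0.00253), with 6 of 7 libraries above every control. Ripk2 was at 7.43 to 14.6 CPM in C57BL/6 (median 9.43), 8.6 to 11.5 in Winnie (median 9.96) and 10.5 to 16.4 in Winnie-Prolapse (median 14.6). Its difference of 0.54 ± 0.15 in Winnie-Prolapse (adjusted p = 0.00635) was under 1.5-fold. Without C57BL/6 replicate 7, the highest control, it was 0.65 and passed the strict rule (adjusted p = 0.000388).

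Nlrp3 (ENSMUSG00000032691, GRCm38 chr11:59541568-59566956, plus strand) had the largest change of the 32 genes. In C57BL/6 it was at 0.0683 to 0.656 CPM (2 to 17 counts, median 0.238 CPM), the lowest level of the set per length. It was at 0.394 to 3.78 CPM in Winnie (median 0.617) and 2.39 to 23.0 in Winnie-Prolapse (median 4.34). Every Winnie-Prolapse library exceeded every control, and Winnie replicate 2, at 3.78 CPM, was the one Winnie library above 1 CPM. The log2 fold change in Winnie-Prolapse was 5.09 ± 0.61 (34.0-fold from the fit, with controls of 2 to 17 counts, adjusted p = 9.09e-06), and it stayed between 4.72 and 5.39 in the 15 fits that leave out 1 library. In Winnie it was 2.0 ± 0.53 (adjusted p = 0.0147) and 1.25 without replicate 2, still called by the wider rule. Winnie-Prolapse exceeded Winnie by 3.09 ± 0.67 (adjusted p = 0.0187), or 3.85 without Winnie replicate 2, and this was the one difference between the Winnie groups that was called in all 14 fits that leave out 1 library.

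Tlr6, Cd14, Tlr8 and Nod2, the other genes called between the Winnie groups, depended on single libraries. Leaving out Winnie replicate 3, 4, 5 or 6 or Winnie-Prolapse replicate 4, 5 or 6 left Nlrp3 as the 1 call, with 2.51 to 4.35% of all genes called in those fits. Without Winnie-Prolapse replicate 7 there were 2 calls (5.79% of all genes), without Winnie replicate 7 there were 3 (4.27% of all genes), without Winnie-Prolapse replicate 3 there were 8 (10.9% of all genes) and without Winnie replicate 2 there were 9 (11% of all genes). The highest adjusted p of these 4 genes over the fits was 0.0735 for Tlr6, 0.0713 for Cd14, 0.0828 for Tlr8 and 0.0626 for Nod2. Their log2 fold changes kept within 0.76 to 1.14, 0.90 to 1.15, 1.43 to 1.94 and 1.33 to 1.73 respectively.

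The other inflammasome sensors were abundant and were not called with all libraries in the fit. Nlrp6, an epithelial sensor tied to goblet cell mucus secretion, was at 183 to 258 CPM in C57BL/6 (median 198), 186 to 364 in Winnie (median 326) and 95 to 231 in Winnie-Prolapse (median 187). The 95 CPM belongs to Winnie-Prolapse replicate 6, the library with 18.0% of its counts in milk protein genes. By median Nlrp6 was thus higher in Winnie than in either other group. The log2 difference was 0.52 ± 0.15 in Winnie (adjusted p = 0.0204, below 1.5-fold) and -0.2 ± 0.18 in Winnie-Prolapse (adjusted p = 0.355). Between Winnie-Prolapse and Winnie it was -0.72 ± 0.23 (adjusted p = 0.0644). Without Winnie replicate 2 or 5 the rise in Winnie was 0.61 in each fit and passed the wider rule (adjusted p = 0.0137 and 0.00307), and without Winnie replicate 2 or Winnie-Prolapse replicate 3 the fall from Winnie to Winnie-Prolapse passed (-0.80, adjusted p = 0.0369, and -0.81, adjusted p = 0.0432). Summed goblet cell markers were at 10500 to 15900 CPM in C57BL/6 (median 12400), 5680 to 22000 in Winnie (median 8280) and 2990 to 11900 in Winnie-Prolapse (median 3580). Winnie replicates 4 and 6, at 22000 and 20600 CPM, exceeded every control, and of the 6 markers none was lower and 1 (Spink4) was higher by the wider rule in Winnie. Over all genes that rule called 15.9% in Winnie, with 7.42% called higher. In Winnie-Prolapse against C57BL/6, 3 were lower (Muc2, Tff3 and Clca1) and Spink4 was higher by that rule, where 34.4% of all genes were called. The part of goblet cell number in the Nlrp6 values was not tested. In bulk tissue, fewer cells of a type and less RNA per cell cannot be told apart.

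Nlrc4, the sensor of flagellin and secretion system proteins, was at 37.5 to 49.3 CPM in C57BL/6 (median 41.3), 39.2 to 59.7 in Winnie (median 48.2) and 49.5 to 66.7 in Winnie-Prolapse (median 54.8). All Winnie-Prolapse libraries lay above all controls, although by a narrow gap. The difference, 0.54 ± 0.09 (adjusted p = 0.00014), was under 1.5-fold, and it passed the strict rule without Winnie-Prolapse replicate 2 (0.61, adjusted p = 2.73e-05). Aim2, the sensor of cytosolic DNA, was level, at 56.1 to 77.6 CPM in C57BL/6 (median 65.7), 55.2 to 76.2 in Winnie (median 71.3) and 55.5 to 76.1 in Winnie-Prolapse (median 66.6). Its difference in Winnie-Prolapse was 0.1 ± 0.09 (adjusted p = 0.393).

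The shared core of the inflammasome showed no call. Pycard, which encodes the adaptor ASC, was at 59.4 to 95.4 CPM in C57BL/6 (median 67.5), 61.9 to 87.3 in Winnie (median 82.0) and 56.0 to 110 in Winnie-Prolapse (median 85.1). The difference in Winnie-Prolapse was 0.3 ± 0.14 (adjusted p = 0.081). Casp1 was at 115 to 139 CPM in C57BL/6 (median 125), 112 to 185 in Winnie (median 130) and 86.5 to 154 in Winnie-Prolapse (median 128). Its difference was 0.23 ± 0.11 in Winnie (adjusted p = 0.132) and 0.04 ± 0.13 in Winnie-Prolapse (adjusted p = 0.795).

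Casp4, the caspase that binds cytosolic lipopolysaccharide (caspase-11 in mice), lies next to Casp1 on chromosome 9 and did rise. It was at 22.7 to 57.8 CPM in C57BL/6 (median 30.6), 35.1 to 77.7 in Winnie (median 47.2) and 38.9 to 69.6 in Winnie-Prolapse (median 51.6). The 57.8 CPM belongs to C57BL/6 replicate 7, and the other controls were at or under 32.2. The log2 fold change was 0.81 ± 0.21 in Winnie (adjusted p = 0.0133) and 0.8 ± 0.20 in Winnie-Prolapse (adjusted p = 0.00318). Without C57BL/6 replicate 7 the latter was 0.99 and passed the strict rule. Winnie and Winnie-Prolapse differed by 0.00 ± 0.19 (adjusted p = 0.995).

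**Figure D3:**
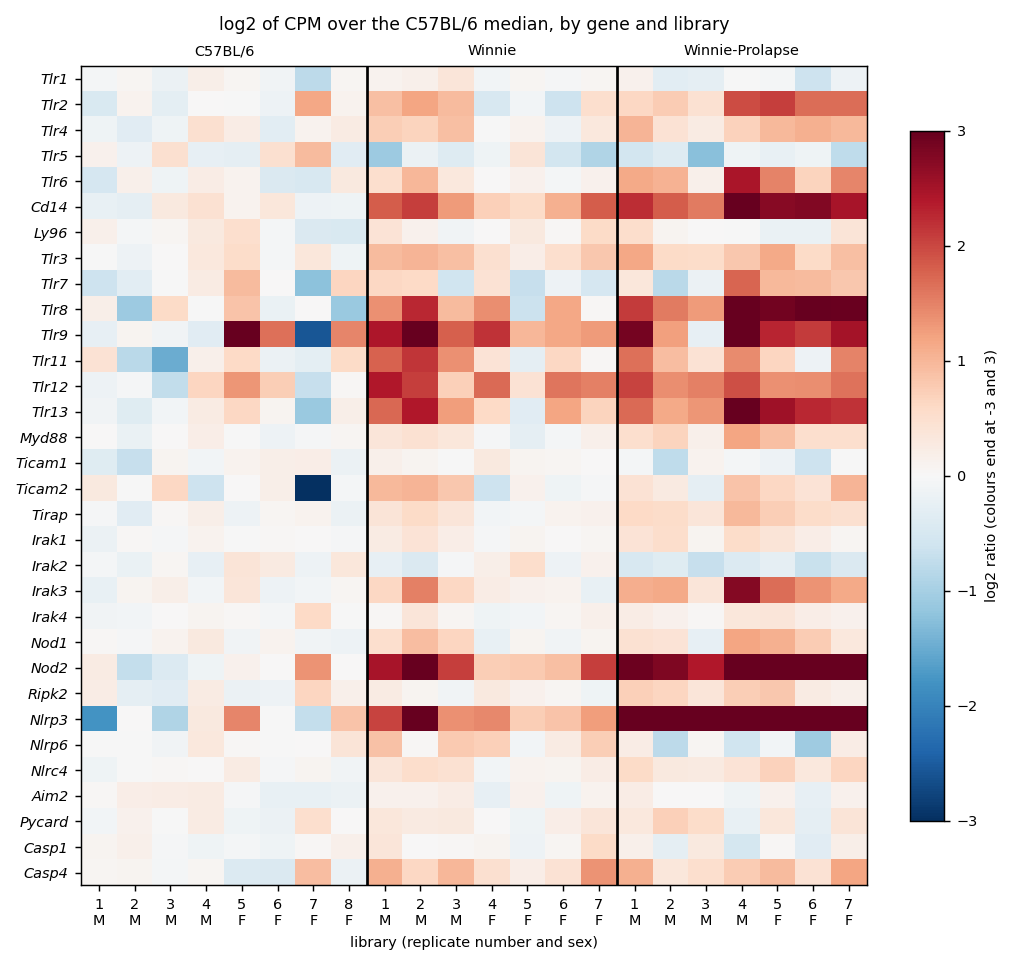
Colour gives log2 of the CPM of each gene (y axis) in each library (x axis, replicate number with M for male and F for female) over the C57BL/6 median of that gene, with the colours ending at -3 and 3. Nod2 and Nlrp3 are dark red across Winnie-Prolapse, Winnie replicate 2 is the reddest Winnie library, and C57BL/6 replicate 7 departs from its group for Tlr1, Tlr2, Tlr9, Ticam2, Nod2 and Casp4.

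Within each group a few libraries held many of the highest or lowest values. Within Winnie, males and females did not overlap in 15 of the 32 genes (21.6% of all genes), as described below. Winnie replicate 2 had the highest CPM of its group for 18 of the 32 genes and replicate 5 the lowest for 14. In Winnie-Prolapse, replicate 4 was highest for 14 genes and replicate 3 lowest for 17; on TMM-scaled CPM, which allow for the composition of each library, replicate 3 was lowest for 8 and replicate 2 for 17. Winnie-Prolapse replicate 6, with the milk protein counts, was lowest for 5 genes on CPM (Tlr1, Tlr11, Nlrp6, Aim2 and Pycard) and for 1 on TMM-scaled CPM. The part of the milk protein counts in these low values was not tested. In C57BL/6, replicate 5 was highest for 12 genes and replicates 4 and 7 for 8 each. Winnie replicate 5 lay lowest in summed macrophage markers (165 CPM, against a group median of 254), and Winnie replicate 2 had the highest summed neutrophil markers without Ly6g (133 CPM, against a median of 13.3). In macrophage markers Winnie replicate 2 (325 CPM) was below replicate 1 (361 CPM). Winnie-Prolapse replicate 3 was lowest in neither list, at 316 and 83.2 CPM against lowest values of 242 and 71.3.

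Levels of different genes were compared as CPM per kilobase of merged exon. Casp1 was first in every group, at a median of 83.7 in C57BL/6, against 86.8 in Winnie and 85.7 in Winnie-Prolapse. Nlrp6 (38.9 in C57BL/6) and Tlr1 (35.1) followed in the controls. Cd14 went from the 9th place (12.5) in C57BL/6 to the 4th (30.2) in Winnie and the 2nd (69.5) in Winnie-Prolapse. Nlrp3 went from last of 32 (0.0586) to the 24th place (1.07), and Nod2 from the 27th (0.212) to the 22nd (2.16), so both stayed in the lower part of the order in the most inflamed colon. The medians of Pycard, Aim2 and Irak1 in C57BL/6 (17.8, 18.8 and 14.0) lie close together, and their order changed between groups.

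Among the 12 TLRs alone, Tlr1 had the largest share of the summed level per length in each group, at 48.6 to 72.5% in C57BL/6 (median 68.7%), 54.5 to 69.0% in Winnie (median 62.3%) and 40.3 to 58.4% in Winnie-Prolapse (median 46.9%). The lowest control share was that of the library with the low Tlr1 value. The median share of Tlr2 was 6.86%, 8.87% and 17.6% in the same order, and that of Tlr3 was 11.2%, 14.4% and 15.1%. Tlr4 was at 7.7%, 8.0% and 9.94%, and Tlr8 at 0.213%, 0.389% and 0.993%.

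**Figure D4:**
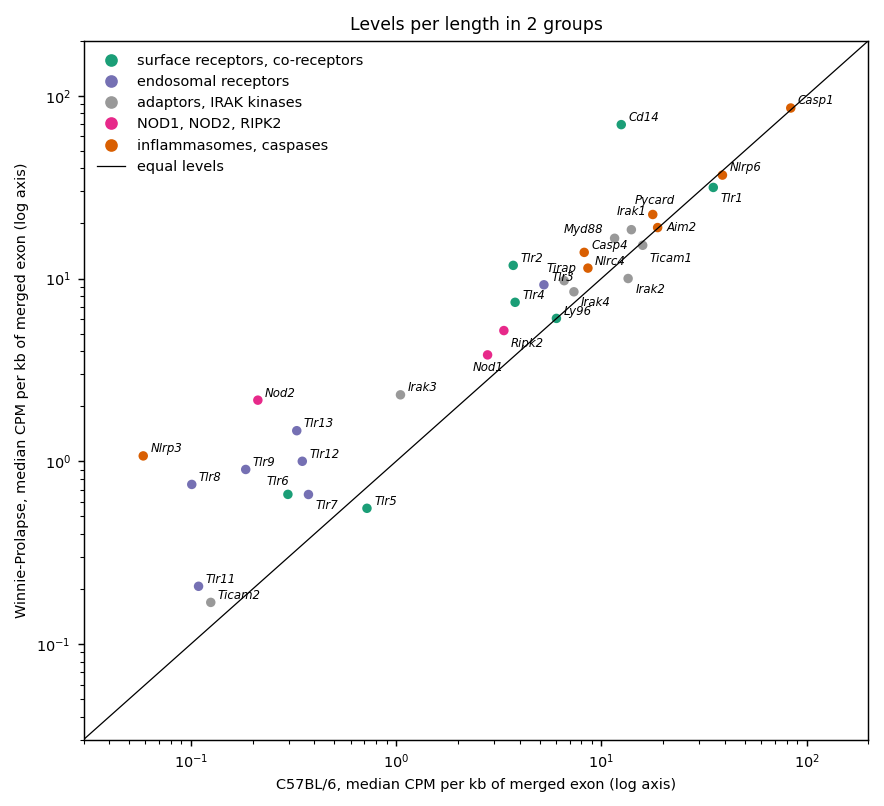
Median CPM per kilobase of merged exon in C57BL/6 (x axis) and in Winnie-Prolapse (y axis), both on log scales, with 1 point a gene coloured by role and a line of equal levels. Abundant genes such as Casp1, Nlrp6, Tlr1 and Aim2 lie on or near the line, Cd14 is the abundant gene farthest above it, and Nlrp3, Nod2, Tlr8 and Tlr13 lie above it at the low end.

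Sex was balanced over the groups as a whole. In the fit of all 22 libraries that allowed for group, 0 of the 32 genes differed between females and males by either rule, against 0.0675% of all genes by each. In edgeR 1 gene, Irak2, had an unadjusted p under 0.05 (4.37% of all genes did), the lowest adjusted p of the set was 0.27, and DESeq2 called 0. The genes on chromosome X (Tlr7, Tlr8, Tlr13 and Irak1) showed no separation by sex in controls: Irak1 had a median of 66.2 CPM in both sexes, Tlr13 of 1.32 in males and 1.54 in females, Tlr7 of 1.38 and 1.96, and Tlr8 of 0.386 and 0.338. In Winnie the sexes did not overlap for Irak1, at 76.2 to 88.1 CPM in males and 64.8 to 70 in females, or for Tlr13, at 3.39 to 7.4 CPM in males and 1.12 to 3.22 in females. Such separation of 3 males from 4 females was seen in 15 of the 32 genes and in 21.6% of all genes, a count made after the values were seen.

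The sexes were also fitted apart, with the test of their difference given in the next paragraph. Fitted in males alone (4 C57BL/6 and 3 Winnie), 14 of 32 genes passed the wider rule, all higher, with a median log2 fold change of 0.60; 22.5% of all genes were called. In females alone (4 and 4), 0 of 32 passed, with a median of 0.18, and 1 of 17260 genes was called (0.00579%). In Tlr2, Winnie males were at 21.0, 25.4 and 21.8 CPM and Winnie females at 8.04, 10.5, 7.28 and 15.8 CPM. Nod2 was at 5.86, 8.78 and 4.47 CPM in Winnie males, and at 1.76, 1.84, 1.98 and 4.45 CPM in Winnie females. Among the females, replicate 7 was the nearest to the males in both genes. Summed neutrophil markers without Ly6g were at 20.7, 133 and 18.3 CPM in Winnie males and 3.04, 2.0, 3.45 and 13.3 CPM in Winnie females. Summed macrophage markers overlapped, at 225 to 361 CPM in Winnie males and 165 to 277 in Winnie females. The part of these cells in the values of the sexes was not tested.

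The test of the difference itself did not pass. The sex by group interaction for Winnie against C57BL/6 called 0 of 32 genes at an adjusted p under 0.05, against 0.272% of all genes in edgeR, and the lowest adjusted p was 0.0943, for Tlr2 (females minus males -1.55 ± 0.42). At an unadjusted p under 0.05, 10 of 32 genes had a smaller change in females and 0 a larger one (Tlr2, Tlr4, Tlr9, Tlr11, Tlr13, Irak3, Nod1, Nod2, Nlrp3 and Nlrc4), where 18.5% of all genes passed that limit. DESeq2 called 4 (2.43% of all genes). Leaving out Winnie replicate 7 gave 2 calls (1.02% of all genes) and leaving out C57BL/6 replicate 7 gave 1 (1.4% of all genes). Both are female mice.

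In Winnie-Prolapse both sexes were raised. The median log2 fold change against C57BL/6 was 0.67 in males and 0.79 in females, with 17 and 14 genes passing the wider rule where 24.2% and 27.1% of all genes were called. The interaction called 0 of 32 genes in edgeR, 1 (Aim2) at an unadjusted p under 0.05 (4.34% of all genes), and 0.0% of all genes. DESeq2 also called 0 of 32. Between Winnie-Prolapse and Winnie, males alone gave 0 calls and a median of 0.00, with 0.0% of 17560 genes called. Females alone gave 12 calls and a median of 0.53, with 14.3% of all genes called. Of the 12, Irak2 was lower in Winnie-Prolapse and the others were higher. The interaction there called 0 of 32 and 0.0% of all genes in edgeR. At an unadjusted p under 0.05, the change in females minus that in males was positive for 7 genes and negative for 1 (Irak2). For Irak2, which fell, this is a larger fall in females (-0.37 ± 0.17). Over all genes 12.9% passed the limit of 0.05, and DESeq2 called 2 (0.62% of all genes). Winnie mice of 1 sex number only 3 or 4, and the labels give no grade of inflammation for single mice.

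Of 33 other genes of the TLR pathway (kinases, NF-κB subunits and inhibitors, interferon regulatory factors, chaperones of the receptors and accessory proteins such as Lbp), 7 were higher and 0 lower by the strict rule in Winnie-Prolapse against C57BL/6, where 9.84% of all genes were called higher, and the median log2 fold change was 0.36. The largest were Lbp, the carrier of lipopolysaccharide to CD14 (3.76 ± 0.50, adjusted p = 2.4e-05), Nfkbiz (1.56 ± 0.21, adjusted p = 2.66e-05), Rel (1.44 ± 0.22, adjusted p = 6.88e-05) and Irf5 (1.21 ± 0.24, adjusted p = 0.000698). Lbp went from a median of 3.75 CPM in C57BL/6 to 14.7 in Winnie and 45.1 in Winnie-Prolapse. In Winnie 4 of the 33 were higher by the wider rule, where 7.42% of all genes were.

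Of 10 other NOD-like receptors tested in Winnie-Prolapse against C57BL/6, 2 were higher by the strict rule and 0 lower, where 9.84% of all genes were. Both are regulators of MHC genes: Nlrc5 of class I (4.61 ± 0.27, adjusted p = 9.59e-09) and Ciita of class II (3.06 ± 0.49, adjusted p = 0.000113). Nlrc5 also passed the strict rule in Winnie (3.88 ± 0.50, adjusted p = 0.000937), where 0 of the 32 genes did. That call was lost with limma-voom and with at least 10 counts in every library, where 0.0% of all genes passed. It was also lost in females alone and without C57BL/6 replicate 1, 2 or 6, again with 0.0% of all genes passing. Medians of Nlrc5 ran from 2.63 CPM in controls to 40.3 in Winnie and 73.1 in Winnie-Prolapse.

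Of 14 partners and products of the inflammasome, Il1a passed the filter on low counts only with the Winnie-Prolapse libraries. Of the other 13, 4 were higher and 2 lower by the strict rule in Winnie-Prolapse, where 18.3% of all genes were called and 9.84% called higher. Il1b, the cytokine matured by caspase-1, was at 0.239 to 2.12 CPM in C57BL/6 (median 0.746), 1.97 to 51.4 in Winnie (median 5.94) and 25.3 to 274 in Winnie-Prolapse (median 57.4). It rose by 6.93 ± 0.60 (adjusted p = 4.83e-07). Il1a was at 0.00 to 0.579 CPM in C57BL/6 (median 0.221) and 4.93 to 62.2 in Winnie-Prolapse (median 13.0). It was called as well, but that call follows in part from the filter. Il18bp, the soluble inhibitor of IL-18 (3.96 ± 0.23, adjusted p = 9.59e-09), and Mefv, which encodes pyrin (3.03 ± 0.30, adjusted p = 1.63e-06), complete the 4 largest fitted changes, with Il1a counted. The other cytokine of caspase-1, Il18, went the other way: 62.8 to 184 CPM in C57BL/6 (median 137), 30.1 to 124 in Winnie (median 70.8) and 26.2 to 65.4 in Winnie-Prolapse (median 43.6), a log2 fold change of -1.46 ± 0.24 (adjusted p = 0.00014). Il1b and Il18 thus moved in opposite directions while Casp1 and Pycard did not pass the test.

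Of 19 other pattern receptors tested in Winnie-Prolapse, Clec4e, Clec4d, Fpr1, Fpr2 and Marco passed the filter on low counts only with the Winnie-Prolapse libraries, so that their calls follow in part from the filter. Of the other 14, 7 were higher and 0 lower by the strict rule, where 9.84% of all genes were higher. These 7 were Zbp1, Clec7a, Tmem173, Clec4n, Msr1, Pglyrp1 and Dhx58. Their log2 fold changes ran from 3.56 ± 0.21 (Zbp1) to 0.84 ± 0.13 (Dhx58). The 4 with the largest fitted change, the C-type lectins Clec4e and Clec4d and the formyl peptide receptors Fpr1 and Fpr2, were at or near 0 in controls. Clec4e was at 0.00 to 0.309 CPM in C57BL/6 (median 0.0346), 0.0288 to 5.67 in Winnie (median 0.201) and 2.9 to 49.4 in Winnie-Prolapse (median 13.9). Fpr1 was at 0.00 to 0.154 CPM in C57BL/6 and 1.26 to 17.2 in Winnie-Prolapse. Fpr2 was at 0.00 to 0.309 and 2.59 to 39.8 CPM, and Clec4d at 0.00 to 0.331 and 1.48 to 30.1 CPM. These control values are at or within a few counts of the floor, so no fold is given.

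The 12 macrophage and monocyte markers summed to 116 to 243 CPM in C57BL/6 (median 187), 165 to 361 in Winnie (median 254) and 242 to 712 in Winnie-Prolapse (median 431). By the strict rule 8 of the 12 were higher in Winnie-Prolapse, where 9.84% of all genes were called higher. None of the 12 was at 0 in every library. Csf1r, the colony-stimulating factor receptor that marks macrophages and a gene named here after its values were seen, rose by 1.46 ± 0.21 (adjusted p = 4.54e-05). The 12 neutrophil markers summed to a median of 288 CPM in C57BL/6, against 424 in Winnie and 789 in Winnie-Prolapse, nearly all of it Ly6g in the first 2 groups. Camp, Cxcr2, Elane, Mpo and Ngp were too low to be tested against C57BL/6, and S100a9, Retnlg and Mmp8 passed the filter only with the Winnie-Prolapse libraries. Of the other 4, 3 were higher by the strict rule in Winnie-Prolapse (S100a8, Csf3r and Mmp9), where 9.84% of all genes were. Without Ly6g, a choice made after the values were seen, the sum was 0.869 to 4.13 CPM (median 2.33), 2.0 to 133 (median 13.3) and 71.3 to 1500 (median 182). S100a8, which encodes an abundant neutrophil protein, had a median of 0.11 CPM in C57BL/6, against 2.39 in Winnie and 78.9 in Winnie-Prolapse. Summed T cell markers had a median of 7.62, 17.8 and 27.5 CPM, and summed B and plasma cell markers 245, 785 and 1190 CPM. The latter sum is mostly Jchain, with 154, 743 and 1130 CPM. Of its 6 markers, Jchain and Mzb1 were higher by the strict rule in Winnie-Prolapse, where 9.84% of all genes were. The median log2 fold change over the 6 was 0.27. Summed intestinal epithelial markers were at 12000, 12200 and 9050 CPM. Squamous epithelial markers, which the colon lining lacks, summed to 1.88 to 2.83 CPM in C57BL/6 (median 2.55), 1.62 to 41 in Winnie (median 2.42) and 2.15 to 2700 in Winnie-Prolapse (median 226). The 41 CPM belongs to Winnie replicate 2. Trp63 was not tested, and Krt5 and Krt6b passed the filter only with the Winnie-Prolapse libraries. The other 2, Krt13 and Krt14, were higher by the strict rule in Winnie-Prolapse, where 9.84% of all genes were. The part of these cell types in the values of the 32 genes was not tested.

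**Figure D5:**
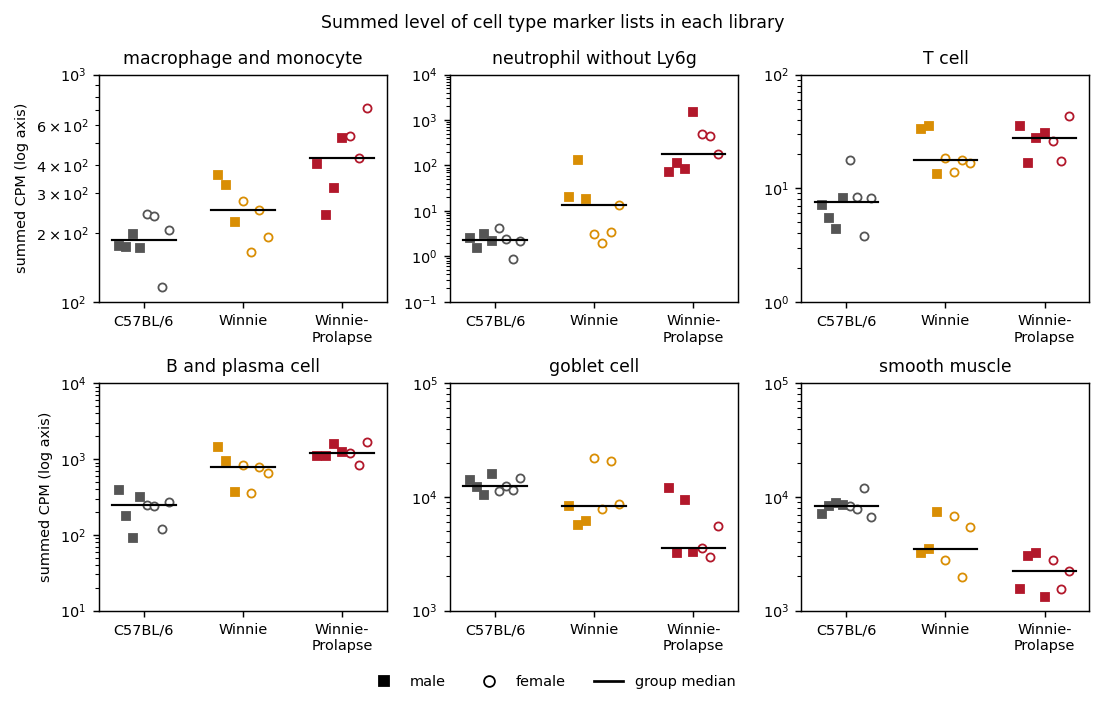
Summed CPM (y axis, log scale) of 6 cell type marker lists in each library (points; squares male, open circles female) by group, with the group median as a line. Macrophage, neutrophil (without Ly6g), T cell and B and plasma cell medians rise from C57BL/6 to Winnie-Prolapse, and goblet cell and smooth muscle medians fall.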

How the data were processed

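RNA-seq gene counts of 22 distal colon libraries were used as the authors deposited them: reads aligned with STAR to GRCm38 and counted per gene with featureCounts, not normalised. The strand setting of the counting is not given in the sources used here. Groups, sex and age came from the labels. Genes were filtered with filterByExpr, scaled by TMM and tested with the quasi-likelihood F test of edgeR 4.0.16 (R 4.3.3), each pair of groups apart, with Benjamini-Hochberg adjustment over all genes tested. The SE is the log2 fold change divided by the square root of F. CPM are on the total count of a library. The strict rule asked for an adjusted p under 0.001 and the wider rule for one under 0.05, each with at least 1.5-fold. A sex term and a sex by group term were fitted likewise. The fit was tested on simulated data. Every gene of the set is named, and of each pathway list the 4 largest strict changes. Of the other pattern receptors, the strict calls that do not depend on the filter are named as well. The members and lists were chosen with earlier results of these data known. Alternatives were DESeq2 1.42.0, limma-voom (limma 3.58.1), no TMM, other filters, sex as a covariate, single-sex fits, a fit of all 3 groups and each library left out. All pairs of libraries within a group differed beyond counting noise (lowest chi-square per degree of freedom 28.83). Replicate numbers follow the order of the records.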

Additional observations from a re-analysis of the deposited data

Results flagged for a closer look

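Dixon's test was applied to 96 groups of values (32 genes in 3 groups). In 11 a single library had a gap to the next over the 95% critical value. The rate of about 1 in 20 for that value holds for independent, normally distributed values. These CPM come from the same libraries gene after gene, so the 11 cannot be read against that rate. The share over all genes was not counted. In C57BL/6 replicate 7, Tlr1 was the lowest at 67.8 CPM (next 104), while Tlr2 was the highest at 25.1 CPM (next 12.1), Irak4 at 55.4 CPM (next 38.8), Nod2 at 2.68 CPM (next 1.26) and Casp4 at 57.8 CPM (next 32.2). Tlr9 in C57BL/6 was highest in replicate 5, at 6.79 CPM (next 2.01). In Winnie replicate 2, Irak3 was at 10.9 CPM (next 5.94) and Nlrp3 at 3.78 CPM (next 0.963). In Winnie-Prolapse replicate 4, Tlr6 was at 6.05 CPM (next 3.11), Tlr13 at 19.4 CPM (next 8.27) and Irak3 at 25.8 CPM (next 12.3).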

How the results depend on the processing

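By the strict rule in Winnie, DESeq2 called 5 genes (4.19% of all genes), the fit without a filter on low counts 1 (0.232%) and the fit of all 3 groups 1 (1.12%), against 0. By the wider rule in Winnie, 15 passed with no fold limit (25.7%), 14 in males alone (22.5%) and 0 in females alone (0.00579%), against 9. That rule gave 7 with limma-voom (16.1%) and 6 with at least 10 counts in every library (14.0%). The strict rule in Winnie-Prolapse gave 1 gene in males alone (1.76% of all genes) and 1 in females alone (1.45%), against 13 (18.3%), in fits with fewer mice. It gave 12 with limma-voom (17.6%) and 12 without TMM (17.7%), in both cases without Tlr2. DESeq2 gave 15 (16.8%), and at least 10 counts in every library gave 11 (17.2%). Between the Winnie groups the wider rule gave 9 with no fold limit (8.74%), 8 with DESeq2 (8.53% of all genes), 3 with limma-voom (5.08%), 8 with all 3 groups (10.1%), 0 in males alone (0.0%) and 12 in females alone (14.3%), against 5, and the strict rule gave 1 with DESeq2 (2.22%). The sex by group test gave 4 (Winnie against C57BL/6, 2.43% of all genes) and 2 (Winnie-Prolapse against Winnie, 0.62%) with DESeq2. On TMM-scaled CPM, 2 genes were separated in range in Winnie (1.6% of all genes). The cause of these differences was not tested.

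Leaving out 1 library gave 0 to 2 strict and 7 to 11 wider calls in Winnie, where 0.0 to 3.89% and 11.1 to 21.1% of all genes were called. It gave 10 to 15 and 16 to 19 in Winnie-Prolapse (14.4 to 20.8% and 32.3 to 36.9% of all genes), and 0 and 1 to 9 between the Winnie groups (at most 0.00584%, and 2.51 to 11% of all genes). The sex by group test gave 0 to 2 in Winnie (0.0 to 1.99% of all genes) and 0 to 1 between the Winnie groups (0.0 to 0.408%). Genes separated in range numbered 1 to 3 in Winnie (1.69 to 8.25% of all genes), 9 to 14 in Winnie-Prolapse (16.1 to 20.5%) and 0 to 2 between the Winnie groups (0.98 to 3.43%).

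Directions turned in genes that were not called. In Winnie these were Tlr2 (-0.37), Tlr7 (-0.33), Tlr9 (-0.45) and Irak4 (-0.04) in females alone, Tlr7 (-0.04) and Irak2 (-0.05) without TMM, and Irak2 with at least 10 counts (-0.01), with sex as a covariate (-0.01) and in males alone (-0.11). In Winnie-Prolapse they were Tlr1 in females alone (0.05), Ticam1 (0.13), Aim2 (-0.10) and Casp1 (-0.01) in males alone and Casp1 without TMM (-0.04). Between the Winnie groups they were Tlr4 (-0.13), Ly96 (0.01), Tlr3 (-0.14), Tlr9 (-0.19), Ticam2 (-0.57), Nod1 (-0.18) and Nlrc4 (-0.04) in males alone, Tlr11 with limma-voom (0.05) and in females alone (0.56), and Aim2 in females alone (0.06). With 1 library left out, ranges crossed 0 for Tlr7 (-0.07 to 0.22) and Irak2 (-0.05 to 0.11) in Winnie, Tlr1 (-0.09 to 0.05), Ticam1 (-0.14 to 0.07) and Casp1 (-0.03 to 0.14) in Winnie-Prolapse, and Tlr5 (-0.22 to 0.05), Tlr11 (-0.21 to 0.18), Tlr12 (-0.13 to 0.19), Aim2 (-0.05 to 0.03) and Casp4 (-0.09 to 0.14) between the Winnie groups. The mean of Tlr9 in C57BL/6 was 1.63 CPM and 0.892 without replicate 5. Low counts limit Tlr8, Tlr9, Tlr11, Ticam2 and Nlrp3 in controls. No paired analysis was possible because the replicate numbers follow record order and each mouse is in 1 group.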
